A study of Mus musculus with 36 samples.

Results

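DN3 thymocytes and pro-B cells are the precursors in which T cells and B cells begin to assemble their antigen receptors, and the 2 populations were set against each other gene by gene. The members were the arrays titled DN3 with replicate numbers 4 to 6 and those titled pro-B with numbers 1 to 3, 6 of the 36 arrays of the series. They belong to a block of 21 arrays in 7 populations that was normalized together, and only arrays of that block were compared. Both populations came from C57BL6 mice labelled as 1 week old and of both sexes, with no mutation, transgene or treatment named for any of these arrays. The labels describe the DN3 arrays as early thymic progenitors and the pro-B arrays as B-cell progenitors. They give these arrays no tissue, no sorting gate and no number of mice, so the spread between arrays may be technical. The p-values rest on the spread between arrays of a population, pooled over the 7 populations of the block, with 3 arrays each in DN3 and pro-B. The other populations of the block serve only as a scale of reference. They are stem cells (HSC, 3 arrays), marrow LSKFlt3hi IL7R+ cells (LSK, 3), common lymphoid progenitors (CLP, 4), early thymic progenitors (ETP, 3) and adult ETP (2).

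In the thymus, DN3 cells lack CD4 and CD8, carry the IL-2 receptor alpha chain CD25 and rearrange the T cell receptor beta locus. A successful beta chain pairs with the invariant pre-T alpha chain and the CD3 chains as the pre-T cell receptor. In the marrow, pro-B cells rearrange the immunoglobulin heavy chain locus, and a successful heavy chain pairs with the surrogate light chain, made of lambda5 and VpreB, and with the signalling chains Ig-alpha and Ig-beta. Notch signals and the factors TCF1, GATA3 and Bcl11b direct the first path, and E2A, EBF1 and Pax5 the second.

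Of 45101 probe sets on the array, 34945 named exactly 1 gene, and together they covered 18193 genes. Each gene was read through its probe set with the highest mean over the 21 arrays. That probe set is called the brightest below, whatever its level in DN3 or pro-B alone. Values are log2 expression, and a difference below is DN3 minus pro-B on that scale, with its standard error (SE) from the fit in limma. Calls required a difference of at least 1, which is 2-fold, and a p under 0.05 after Benjamini-Hochberg adjustment over all 34945 probe sets. By this rule 518 genes (2.85%) were higher in DN3 and 916 (5.03%) higher in pro-B, 1434 (7.88%) in all. The share of the calls that were higher in DN3 was 36.1%, and it became 47.5% (634 against 700 genes) when the 21 arrays were quantile-normalized again. Over probe sets, 1027 (2.94%) were higher in DN3 and 1651 (4.72%) in pro-B, 2678 (7.66%) in all. The median difference of all genes was -0.02. The called differences had a median size of 1.45 on the DN3 side and 1.39 on the pro-B side, and 65 and 72 genes respectively differed by at least 3.

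**Figure D1:**
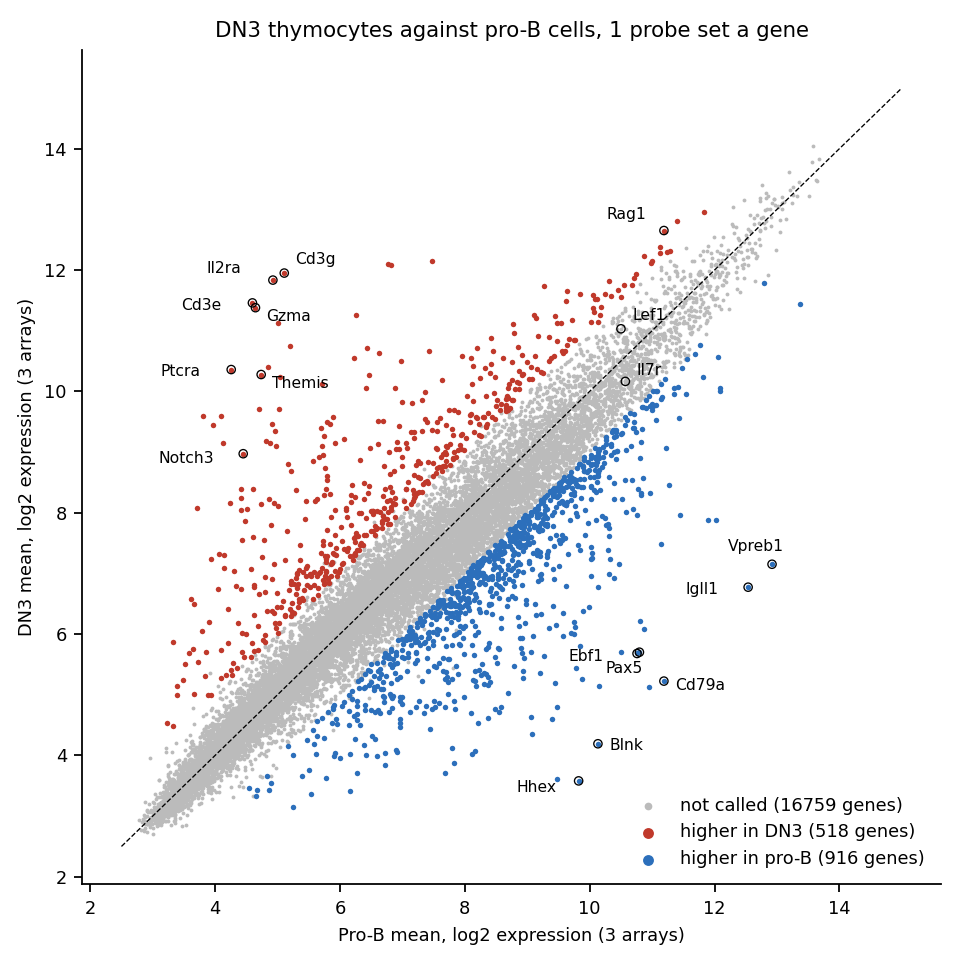
Mean log2 expression of 18193 genes in 3 pro-B arrays (horizontal) and 3 DN3 arrays (vertical), with called genes in red and blue and the line of equality dashed. The CD3 genes, Il2ra and Ptcra stand far above the line and the surrogate light chain genes, Cd79a, Pax5 and Ebf1 far below it, while Il7r and Lef1 lie near it at high level in both.

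The other populations place these differences. Each called gene was asked whether it stood at least 1 above each of the other 5 populations on its high side, and whether it stood at least 1 below each of them on its low side. Of the 518 genes higher in DN3, 147 met only the first condition, 65 only the second, 5 both and 301 neither. Of the 916 genes higher in pro-B, 143 met only the first, 154 only the second, 2 both and 617 neither. Arrays of the same population differed by a root mean square of 0.490 in both DN3 and pro-B, over all 34945 probe sets naming 1 gene. On the same measure a DN3 array differed from a pro-B array by 0.771 on average (range 0.687 to 0.853). The LSK arrays were nearest to pro-B, at 0.608, and also held pro-B genes: Ebf1 averaged 9.50 and Pax5 8.56 in LSK, above their CLP means of 8.96 and 7.22 and far above those in HSC (5.77 and 5.79). Whether the LSK label fits these arrays was not tested, and no order of stages is read from them.

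The labels were checked against defining genes. Of 8 DN3 markers, 7 were measured (Lck was not measured here), and all 7 were called higher in DN3 with no overlap between the arrays. All 7 measured pro-B markers were called higher in pro-B, again without overlap. Over all genes, the arrays did not overlap for 10.1% in the DN3 direction and 16.7% in the pro-B direction. Ptcra, which encodes pre-T alpha, measured 10.43, 10.48 and 10.16 in the DN3 arrays and 4.40, 4.21 and 4.17 in the pro-B arrays. Bcl11b, the zinc finger factor of T commitment, measured 8.67, 8.61 and 7.60 in DN3 and 5.60, 5.81 and 5.83 in pro-B. These values are from its probe set with the highest mean over the block, which was its lowest in DN3. Its other probe sets averaged 9.83, 10.44 and 12.04 in DN3 and 5.37, 5.57 and 4.64 in pro-B. Pax5, the factor that holds B cell identity, measured 5.23, 5.88 and 5.92 in DN3 and 10.74, 11.10 and 10.44 in pro-B. Cd79a, which encodes Ig-alpha, measured 4.75, 5.50 and 5.43 in DN3 and 11.24, 11.13 and 11.21 in pro-B. The labels thus matched the markers on every array.

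Markers of other cells and sex-linked genes also moved. Of 20 genes of granulocytes and monocytes, 5 were higher in pro-B and 0 in DN3. The 5 became 8 in a fit of only the 6 DN3 and pro-B arrays. It was 9 with all 36 arrays and 8 without pro-B replicate 3, and stayed within 1.5 times in the other settings run on the lists. For 9 of the 20 each pro-B array lay above each DN3 array. The mean level of the list ran from 6.36 to 6.43 in the pro-B arrays and from 5.17 to 5.39 in the DN3 arrays. S100a9, a calcium-binding protein of neutrophils, measured 11.03, 10.45 and 10.01 in pro-B and 5.01, 5.97 and 6.14 in DN3, while Elane, Prtn3, Ctsg and Ms4a3 were not called. Of 8 red cell genes, 2 (Slc4a1 and Car2) were higher in pro-B, with list levels of 6.75 to 6.91 against 5.69 to 6.03. Of 11 macrophage genes only C1qb was called, from 2 of the 3 pro-B arrays (7.85, 3.77 and 6.86, against 3.28 to 3.52 in DN3), and without pro-B replicate 1 its adjusted p was 0.0796. Of 15 genes of stroma and thymic epithelium only Epcam was called, and it is described below. The male-specific gene Kdm5d measured 8.58, 4.52 and 8.79 in DN3 and 4.18, 3.90 and 4.36 in pro-B, so DN3 replicate 5 and the 3 pro-B arrays were low, although all carry the label of both sexes. Of 5 measured sex-linked genes, 3 were called, all higher in DN3: Kdm5d, Eif2s3y, also male-specific, and Xist, which is expressed from the inactive X chromosome. Xist measured 12.12, 12.41 and 11.94 in DN3 and 10.28, 11.03 and 11.68 in pro-B (1.16 ± 0.28), while its other probe sets gave 0.25 and -0.07 and were not called. The part of these cells and of sex in the results below was not tested. In bulk arrays, fewer cells of a type and less RNA per cell cannot be told apart.

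The receptor chains had the largest list medians in both directions. Of 7 measured genes of the pre-T cell receptor and CD3 complex, 5 were higher in DN3 and 0 in pro-B, with a median difference of 5.56. All 6 measured genes of the pre-B cell receptor were higher in pro-B, with a median of -4.71. The 5 windows printed here are promoter regions of Ptcra, Cd3e, Igll1 and Cd79a, examples of the receptor genes, and of Blnk, the signalling adaptor that led the B side, chosen with the motifs after the values were seen. Each runs from 250 bases before to 50 after the start of the gene, 5′ to 3′ on the strand of the gene, from the RefSeq table of build GRCm38.p6. Ptcra lies at chr17:46763663-46763962 and Cd3e at chr9:45009562-45009861, both on the minus strand. Igll1 (chr16:16863936-16864235, minus), Cd79a (chr7:24897247-24897546, plus) and Blnk (chr19:40994172-40994471, minus) are the pro-B side. Capitals mark E-boxes (CAGGTG or CAGCTG, the sites read by E proteins), the octamer (ATGCAAAT, read by Oct factors and their partner Pou2af1) and the Runx site (TGTGGT), each searched on both strands.
Ptcra: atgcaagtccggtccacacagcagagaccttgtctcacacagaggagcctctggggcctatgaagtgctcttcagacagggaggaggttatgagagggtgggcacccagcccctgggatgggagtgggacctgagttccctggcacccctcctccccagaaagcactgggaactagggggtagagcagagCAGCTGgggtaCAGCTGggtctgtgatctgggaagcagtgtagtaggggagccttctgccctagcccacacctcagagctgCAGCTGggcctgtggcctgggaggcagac
Cd3e: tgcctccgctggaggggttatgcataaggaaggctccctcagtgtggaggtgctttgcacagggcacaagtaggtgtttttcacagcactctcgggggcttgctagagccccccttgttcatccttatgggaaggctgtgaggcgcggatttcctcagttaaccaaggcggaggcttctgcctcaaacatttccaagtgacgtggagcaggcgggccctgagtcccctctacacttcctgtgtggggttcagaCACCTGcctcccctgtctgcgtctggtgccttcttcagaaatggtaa
Igll1: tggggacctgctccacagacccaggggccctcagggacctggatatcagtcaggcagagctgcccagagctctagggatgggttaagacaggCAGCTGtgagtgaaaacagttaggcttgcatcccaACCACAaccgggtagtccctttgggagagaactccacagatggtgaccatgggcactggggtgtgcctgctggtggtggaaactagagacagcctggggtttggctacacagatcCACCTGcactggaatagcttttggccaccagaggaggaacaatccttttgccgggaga
Cd79a: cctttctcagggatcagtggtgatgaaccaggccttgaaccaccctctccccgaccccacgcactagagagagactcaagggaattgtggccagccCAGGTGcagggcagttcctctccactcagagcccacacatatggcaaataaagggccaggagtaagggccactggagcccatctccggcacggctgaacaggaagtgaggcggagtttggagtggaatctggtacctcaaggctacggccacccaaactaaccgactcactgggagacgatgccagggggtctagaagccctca
Blnk: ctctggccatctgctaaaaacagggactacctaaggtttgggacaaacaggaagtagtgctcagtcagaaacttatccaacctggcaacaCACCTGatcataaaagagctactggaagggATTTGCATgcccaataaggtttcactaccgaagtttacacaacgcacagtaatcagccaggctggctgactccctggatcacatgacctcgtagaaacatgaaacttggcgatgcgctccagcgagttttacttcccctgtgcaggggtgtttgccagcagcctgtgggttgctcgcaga

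All 5 printed windows held an E-box. Over the called receptor genes with a window, an E-box was present for 4 of 5 on the T side, not for Trat1, and for 3 of 4 on the B side, not for Vpreb3. Ptcra had 3 copies of CAGCTG, at 60 and 49 bases before the start and 21 bases after it. Cd3e had 1 E-box, 3 bases after the start, and Cd79a had 1, 154 bases before it. Igll1 had 2 E-boxes, 158 and 8 bases before the start, and a Runx site 123 bases before it. Blnk had an E-box 160 bases and an octamer 130 bases before the start. The table held 18109 windows of 14452 measured genes, some with several starts. An E-box was common, at 32.9% of all windows, 36.6% of the 535 windows of genes higher in DN3 and 30.4% of the 940 of genes higher in pro-B. The octamer was present in 1.39%, 0.748% and 1.49% of the same windows, and the Runx site in 13.7%, 13.6% and 13.8%. The site of Tcf and Lef factors (CTTTGAA or CTTTGAT) was present in 6.86%, 6.73% and 5.32%, and in none of the 5 windows printed. A palindrome read by EBF1 (TCCC and GGGA with 2 bases between them) was present in 1.06% of all windows, in 3 of the 535 on the DN3 side and in 22 of the 940 on the pro-B side, and in none of the 5 windows printed. These matches describe the letters only.

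Among the chains themselves, Cd3e, Cd3g and Cd3d, the signal-transducing partners of every T cell receptor, were at the level of the other progenitors in pro-B and far above it in DN3. Cd3e measured 11.47, 11.55 and 11.36 in DN3 and 4.48, 4.92 and 4.40 in pro-B, a difference of 6.86 ± 0.18 (SE; 116-fold, adjusted p = 4.27e-15), and averaged 4.49 to 4.63 in the other populations. Cd3g differed by 6.84 ± 0.26 and Cd3d by 5.56 ± 0.26. Ptcra differed by 6.10 ± 0.17 (adjusted p = 1.93e-14) and was near its pro-B level in the other populations, with a mean of 4.10 in LSK and 4.17 in CLP. Trat1, an adaptor that binds the receptor complex, differed by 2.70 ± 0.25. Cd247, the zeta chain, was read ambiguously. Its brightest probe set was not called (-0.50), while another measured 10.2 against 5.24 (difference 4.96 ± 0.53, adjusted p = 1.76e-06) and another gave 2.69 ± 0.22. A further probe set of Cd247 gave 0.13 and was not called.

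On the B side, Igll1, which encodes lambda5, measured 7.14, 6.85 and 6.33 in DN3 and 12.47, 12.52 and 12.62 in pro-B, a difference of -5.77 ± 0.22 (adjusted p = 1.48e-12). Its partner Vpreb1 measured 7.92, 7.56 and 5.98 in DN3 and 12.82, 12.98 and 12.97 in pro-B, with a larger SE of 0.51 around the same difference. The DN3 arrays spread widely for Vpreb1 but stayed far from the pro-B arrays. Vpreb1 averaged 11.28 in LSK and 9.75 in CLP, and Igll1 8.06 and 6.31. Cd79b, which encodes Ig-beta, differed by -3.66 ± 0.22 and Vpreb3, a chaperone of the light chains, by -3.54 ± 0.23. Ighm, the mu heavy chain, measured 7.90, 7.80 and 8.21 in DN3 and 11.55, 11.60 and 11.19 in pro-B. Of its 11 probe sets, 2 were called (differences -3.48 and -3.37) and the mean of them all was -0.68, which was not called.

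**Figure D2:**
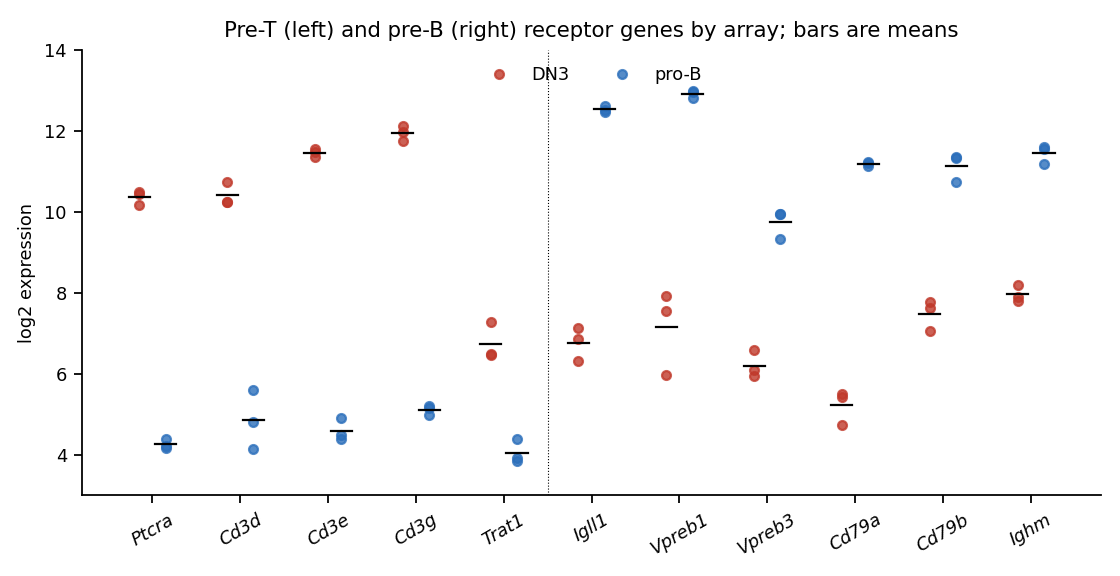
Log2 expression of receptor genes in each of 3 DN3 arrays (red) and 3 pro-B arrays (blue), with bars at the means; pre-T and CD3 genes are left of the dotted line and pre-B genes right of it. The arrays of the populations do not overlap for any of the 11 genes, and Cd3e averages 11.46 in DN3 and 4.60 in pro-B.

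The probe sets called within the receptor loci followed the same split. Segments of a locus are alike in sequence, however, and 1 probe set can read several of them. All 4 probe sets of the T cell receptor gamma locus and all 3 of the beta locus were higher in DN3. The 3 probe sets of Trgv4 differed by 5.68 to 6.24. The brighter probe set of Trbv1 differed by 5.26 ± 0.21 and its other by 3.36. Their highest mean in the other populations was 12.22 and 8.98 respectively, above the DN3 means of 12.08 and 8.62. Trbv13-2 differed by 5.02 ± 0.36, and its highest mean elsewhere was 7.29, against 9.15 in DN3. Tcra differed by 3.38 ± 0.14, while 1 of the 9 probe sets of alpha variable segments was called. Of 19 probe sets of the immunoglobulin heavy chain locus 3 were higher in pro-B, as were 3 of 16 of kappa segments. The median difference was -0.10 over the heavy chain probe sets and -0.09 over the kappa ones. Igkv8-30 differed by -2.81 ± 0.49 and Ighv14-2 by -2.57 ± 0.36.

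Signalling genes downstream of the receptors divided in the same way. Of 22 measured T cell signalling genes 12 were higher in DN3 and 1 in pro-B (median 1.18), and of 23 B cell signalling genes 0 were higher in DN3 and 15 in pro-B. The adaptor Fyb measured 10.66, 10.74 and 10.84 in DN3 and 5.46, 4.88 and 5.24 in pro-B. Themis, which tunes T cell receptor signals in the thymus, differed by 5.54 ± 0.21. Lat, the membrane scaffold phosphorylated by ZAP-70, averaged 10.63 in DN3 and 6.63 in pro-B, and Rasgrp1, which activates Ras, differed by 3.71 ± 0.21. Sh2d1a, the small adaptor SAP, differed by 3.62 ± 0.32, with DN3 arrays at 9.19, 7.02 and 7.92. The coreceptor genes Ctla4 and Cd28 differed by 3.41 ± 0.21 and 2.90 ± 0.45. Smaller differences were found for Prkcq (2.10), Skap1 (2.01), Lcp2 (1.84) and Ptpn22 (1.25). Zap70 itself differed by 0.72 ± 0.22 (adjusted p = 0.0291), under the 2-fold threshold, and Plcg1 (0.21) and Icos (0.16) were not called. Tbc1d10c was the member higher in pro-B (-1.22 ± 0.23).

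The B side was led by Blnk, the adaptor that links SYK to BTK, which measured 3.92, 4.10 and 4.56 in DN3 and 10.20, 10.00 and 10.20 in pro-B (difference -5.94 ± 0.35, adjusted p = 6.19e-10). Pik3ap1, which couples surface receptors to PI3 kinase, differed by -3.32 ± 0.20. The kinases Btk and Syk differed by -2.98 ± 0.22 and -2.29 ± 0.33, and phospholipase Plcg2 by -2.58 ± 0.19. Syk measured 8.14, 8.20 and 6.54 in DN3 and 10.00, 10.05 and 9.71 in pro-B, so it was well above the low end of the scale in DN3. The inhibitory receptors Cd72 (-3.01), Siglecg (-2.92) and Cd22 (-2.37) were also higher in pro-B. Prkcb was not called (0.26 ± 0.29) and was high in both: it averaged 9.77 in DN3 and 9.51 in pro-B, and 5.53 to 7.93 elsewhere.

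Genes with a known counterpart in the other lineage were set side by side, 32 pairs in all, of which 28 had both genes measured. In 7 pairs the T member was higher in DN3 and the B member higher in pro-B. These were Ptcra and Igll1, Cd3e and Cd79a, Cd3g and Cd79b, Lcp2 and Blnk, Themis and Themis2, Bcl11b and Bcl11a, and Tcf12 and Tcf4. In 5 pairs the T member was higher in DN3 and the B member was not called, among them Notch3 against Notch2 and Ikzf2 against Ikzf3. In 4 pairs the B member was higher in pro-B and the T member was not called: Zap70 and Syk, Plcg1 and Plcg2, Foxo3 and Foxo1, and Cd5 and Cd72. In 7 pairs neither was called. The other 5 pairs held calls against the listed sides. Ccnd3 was higher in pro-B (-2.69) and Ccnd2 higher in DN3 (1.10). Id3, listed on the T side, was higher in pro-B (-1.86) with Id2 not called. Runx1 (1.23) and Bcl2 (1.07), listed on the B side, were higher in DN3 with Runx3 and Bcl2l1 not called. That holds for the brightest probe set of Bcl2l1 (-0.66). Through other probe sets Bcl2l1 was called higher in pro-B (-2.55 and -2.22), while a further one was not called (-0.41). Ets2 (1.74) and Ets1 (1.14) were both higher in DN3 through their brightest probe sets. Ets1 stood on the B side of this pair only, and the list of T commitment factors below also holds it. The call of Ets1 was lost through its most variable probe set (0.65, adjusted p = 0.482). It was also lost when all Ets1 probe sets were averaged (0.38, adjusted p = 0.376).

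Transcription factors of T commitment had a smaller median difference than the receptor genes. Of 22 measured, 10 were higher in DN3 and 1 in pro-B, with a median of 0.62. Ikzf2 (Helios) measured 8.79, 8.07 and 8.32 in DN3 and 4.16, 4.40 and 4.68 in pro-B, a difference of 3.98 ± 0.23. In HSC it was higher still, at 9.63. Gata3, required from the first thymic stages, differed by 2.56 ± 0.26, with DN3 at 7.49, 7.70 and 7.93 and pro-B at 4.74, 5.17 and 5.53. Bcl11b differed by 2.54 ± 0.22 (adjusted p = 9.16e-08) and was at 5.78 to 5.96 in the other populations. Its other 3 probe sets gave larger differences, of 4.47, 4.87 and 7.40 ± 0.23, the last from 12.04 in DN3 and 4.64 in pro-B. Tox, an HMG-box factor, differed by 2.59 ± 0.34, and Hivep3 by 2.48 ± 0.18. Tcf12, which encodes the E protein HEB, differed by 1.47 ± 0.16 and the chromatin organizer Satb1 by 1.45 ± 0.20. Lef1, an HMG-box partner of beta-catenin, was not called (0.53 ± 0.22): it averaged 11.03 in DN3 and 10.50 in pro-B and 6.33 to 6.82 in the other populations. Sox4 (-0.12) and Runx3 (-0.01) were not called.

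Of 24 factors listed for the B lineage, 0 were higher in DN3 and 15 in pro-B, with a median of -2.28. Ebf1, which opens the B cell program, measured 5.50, 5.83 and 5.77 in DN3 and 11.12, 10.75 and 10.53 in pro-B (difference -5.10 ± 0.20, adjusted p = 2.57e-12). Pax5 differed by -5.08 ± 0.40, and Pou2af1, the coactivator of Oct factors, by -4.78 ± 0.54. Irf4 and Irf8, interferon regulatory factors used in B cell development, differed by -3.86 ± 0.31 and -3.56 ± 0.27. Foxo1, which sustains Il7r and Rag expression, measured 8.18, 7.89 and 7.81 in DN3 and 11.06, 10.72 and 10.51 in pro-B. Bach2 differed by -2.50 ± 0.24 and Spib by -2.34 ± 0.29. Spib in DN3 (8.47, 7.22 and 6.70) lay above the means of all 5 other populations (4.74 to 5.57). Spi1, which encodes PU.1, differed by -0.99 ± 0.21 (adjusted p = 0.00296), just under 2-fold. Ikzf3 (Aiolos) was not called (0.25 ± 0.39); it averaged 8.58 in DN3 and 8.33 in pro-B and 4.33 to 5.30 elsewhere.

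**Figure D3:**
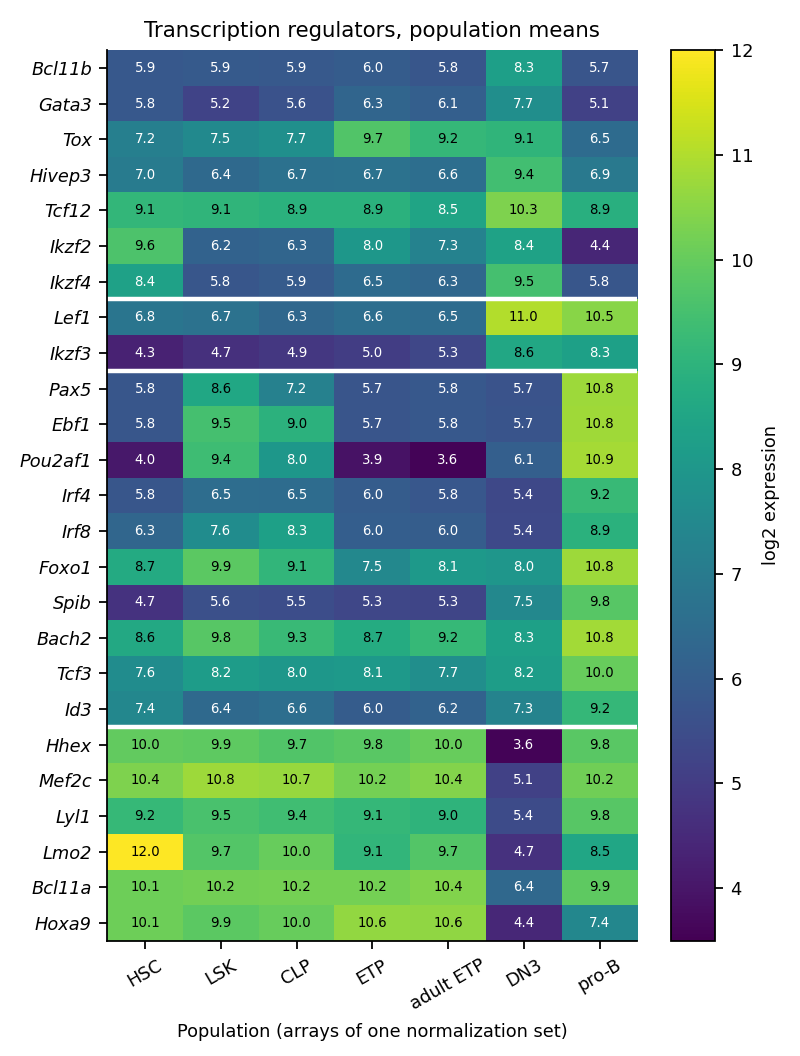
Mean log2 expression of 25 transcription regulators (rows) in the 7 populations of the normalization block (columns), with the mean printed in each cell. The blocks from the top are genes higher in DN3, genes high in both, genes higher in pro-B, and genes lowest in DN3: Hhex averages 3.58 in DN3 and 9.69 to 10.03 in the other progenitors.

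Several of the genes higher in pro-B were at the level of the progenitors there and low in DN3. Of 20 stem and early progenitor genes, 9 were higher in pro-B and 0 in DN3 (median -0.72). Hhex, a homeobox gene, measured 3.70, 3.74 and 3.30 in DN3 and 9.83, 9.97 and 9.67 in pro-B, the largest difference on the pro-B side at -6.24 ± 0.19 (75.7-fold, adjusted p = 7.14e-14). Mef2c differed by -5.02 ± 0.22, with 10.15 in pro-B and 10.23 to 10.76 in the other populations. Lyl1 and Lmo2, partners in stem cell transcription complexes, differed by -4.33 ± 0.19 and -3.82 ± 0.18. Bcl11a differed by -3.52 ± 0.20 and Erg, an Ets factor, by -2.16 ± 0.14. Flt3, a cytokine receptor of early progenitors, measured 4.56, 4.49 and 4.58 in DN3 and 8.66, 8.09 and 7.90 in pro-B, below the ETP mean of 10.38. Hoxa9 averaged 4.43 in DN3, 7.45 in pro-B and 9.86 to 10.62 in the others. Of 8 fetal and neonatal genes only Hmga2 was called; it measured 6.42, 5.77 and 5.88 in DN3 and 10.08, 9.58 and 9.43 in pro-B.

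E proteins are the basic helix-loop-helix factors that both lineages need, and Id proteins bind and block them. Tcf3, which encodes E2A, measured 8.22, 8.41 and 8.04 in DN3 and 10.13, 9.93 and 9.99 in pro-B (difference -1.79 ± 0.21), and Tcf4 differed by -1.58 ± 0.20. Tcf12 ran the other way (1.47). Among the inhibitors, Id3 was higher in pro-B (-1.86 ± 0.23), while the brightest probe set of Id2 was not called (0.97, adjusted p = 0.0766) and another was higher in DN3 (2.25 ± 0.24). In all, 1 of 12 genes of this group was higher in DN3 and 5 in pro-B. Of 19 genes of the Ikaros, Runx and Ets families, 5 were higher in DN3 and 4 in pro-B. Ikzf4 (Eos) differed by 3.71 ± 0.43, Ets2 by 1.74 ± 0.39 and Runx1 by 1.23 ± 0.15 (0.92, adjusted p = 0.11, through its most variable probe set), while Ikzf1 (-0.20) and Fli1 (-0.49) were not called.

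On the cell surface, 5 of 20 T lineage genes were higher in DN3 and 3 in pro-B (median 0.44), and 0 of 18 B lineage genes were higher in DN3 and 9 in pro-B (median -0.80). Il2ra, which encodes CD25, gave the largest difference of the 18193 genes when each is read through its brightest probe set (the further probe set of Bcl11b at 7.40 exceeded it): 12.05, 11.86 and 11.59 in DN3 against 4.82, 4.50 and 5.45 in pro-B (6.91 ± 0.28, 120-fold, adjusted p = 2.58e-12). Thy1 differed by 4.67 ± 0.38, Cd27 by 3.53 ± 0.29 and Cd96 by 2.95 ± 0.30. The genes of the coreceptors were not called (Cd4 0.46, Cd8a 0.47 and Cd8b1 0.53), and neither were Cd5 (0.43) and Cd2 (-0.01). Cd44, which falls between the DN2 and DN3 stages, measured 5.01, 4.77 and 4.82 in DN3 and 7.39, 7.43 and 7.95 in pro-B. Cd69 differed by -2.86 ± 0.32. On the B side, Tnfrsf13c, the receptor for BAFF, differed by -4.60 ± 0.20, the tetraspanin Cd37 by -3.31 ± 0.35 and Cd93 by -2.82 ± 0.17.

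**Figure D4:**
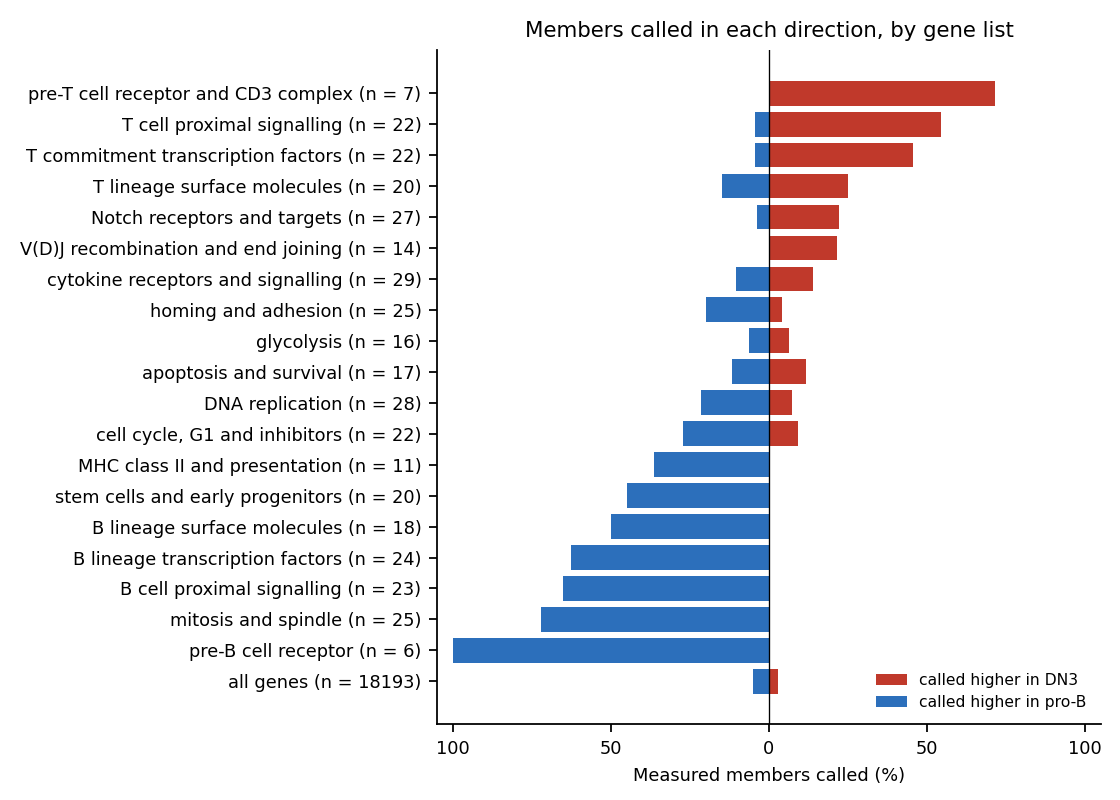
Percentage of the measured members of each gene list called higher in DN3 (red, right) and higher in pro-B (blue, left), with the number of measured members in brackets. All 6 pre-B receptor genes are called to the left and 5 of 7 pre-T receptor genes to the right, against 2.85% and 5.03% of all genes.

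In the lists where limma called 0 members higher in DN3, members with a positive difference at an unadjusted p under 0.05 were also counted. The share of all genes passing that cut was not computed, so the counts have no background beside them. The number was 0 for the pre-B receptor, B signalling, mitosis, class II and granulocyte lists, 1 for B lineage factors and red cells, and 2 for B lineage surface and progenitor genes. In the pro-B direction it was 1 each for the pre-T receptor and recombination lists.

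Of 27 Notch receptors and targets, 6 were higher in DN3 and 1 in pro-B, with a median of 0.06. For 11 of them each DN3 array lay above each pro-B array and for 5 the reverse held, against 10.1% and 16.7% of all genes. The members that moved include Il2ra and Ptcra, already described. Notch3, itself a target of Notch1, measured 9.69, 8.56 and 8.67 in DN3 and 4.23, 4.36 and 4.76 in pro-B (difference 4.52 ± 0.27). Notch1 measured 11.65, 11.50 and 11.32 in DN3 and 9.96, 9.55 and 9.33 in pro-B (1.88 ± 0.20). Dtx1 differed by 1.44 ± 0.30 and Igf1r by 1.43 ± 0.21 (0.97 with the mean of the probe sets, under 2-fold). Hes1 (-0.08 ± 0.29), Nrarp (-0.72 ± 0.32, adjusted p = 0.15) and Myc (0.44) were not called. Lfng, the glycosyltransferase that tunes Notch for its ligands, was higher in pro-B: 6.97, 7.52 and 7.59 in DN3 against 9.57, 9.17 and 8.86. Mfng (-0.63) and Rfng (0.78) were not called.

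The recombination genes were high on both sides. Of 14 measured genes of V(D)J recombination and end joining, 3 were higher in DN3 and 0 in pro-B, with a median of 0.10. Rag1, a subunit of the recombinase, measured 12.74, 12.58 and 12.64 in DN3 and 11.13, 11.51 and 10.93 in pro-B (1.46 ± 0.22, adjusted p = 0.000139). Its partner Rag2 measured 10.35, 10.10 and 10.03 in DN3 and 10.46, 10.49 and 10.18 in pro-B (-0.22, 95% confidence interval -1.40 to 0.97). Dntt, which adds untemplated nucleotides at the joints, differed by 1.27 ± 0.22. Trp53bp1, a protector of broken ends, differed by 1.21 ± 0.18 through its brightest probe set, but by 0.18 (adjusted p = 0.895) through the most variable and by 0.16 (adjusted p = 0.741) with the mean of its probe sets. Lig4, the end-joining ligase, differed by 0.96 ± 0.35 (adjusted p = 0.0672) and averaged 7.99 in DN3 and 7.03 in pro-B but 3.53 to 4.21 in the other populations. Ku and DNA-PK genes were not called (Xrcc5 -0.17, Xrcc6 0.81 and Prkdc -0.61).

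Of 29 genes of cytokine receptors and their signalling, 4 were higher in DN3 and 3 in pro-B. Il7r, which both lineages need, was not called: it measured 10.06, 10.21 and 10.22 in DN3 and 10.69, 10.52 and 10.51 in pro-B (-0.41 ± 0.24, adjusted p = 0.293). In HSC it averaged 3.62. Il17rb differed by 3.25 ± 0.21 and Stat5a, which acts below the IL-7 receptor, by 1.34 ± 0.27. Csf2rb, the beta chain shared by IL-3 and GM-CSF receptors, differed by -2.07 ± 0.26, Socs2 by -1.91 ± 0.45 (-0.97 with the mean of the probe sets) and Ifngr2 by -1.85 ± 0.25. Of 25 homing and adhesion genes, the chemokine receptor Ccr9 was higher in DN3 (1.17 ± 0.22) and 5 were higher in pro-B. These were Cd44, the sphingosine receptors S1pr4 (-1.90 ± 0.20) and S1pr1 (-1.64 ± 0.29), Icam1 (-1.66 ± 0.19) and Ccr7 (-1.65 ± 0.35). Cxcr4 (0.73) and Itga4 (-0.30) were not called.

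Genes of mitosis were higher in pro-B, by small amounts. Of 25 measured, 18 were called higher in pro-B and 0 in DN3, with a median of -1.11; after quantile normalization the median was -0.95 and 11 were called. For all 25 genes each pro-B array lay above each DN3 array, as for 16.7% of all genes. The mean level of the list was 9.47, 9.08 and 9.04 in DN3 and 10.38, 10.42 and 10.14 in pro-B. Plk1, a kinase of mitotic entry, differed by -1.92 ± 0.25, the ubiquitin-conjugating enzyme Ube2c by -1.49 ± 0.23 and Cdk1 by -1.42 ± 0.27. Mki67, the proliferation marker, was high in both at 12.50 and 12.71 and was not called (-0.21 ± 0.12). Of 28 DNA replication genes, 6 were higher in pro-B and 2 in DN3 (median -0.51). Gins2, a subunit of the replicative helicase, differed by -1.54 ± 0.24. Mcm4 and Mcm6, also of that helicase, were the members higher in DN3 (1.74 ± 0.38 and 1.37 ± 0.26). Their pro-B arrays spread widely (8.07, 8.95 and 10.48 for Mcm4). With the mean of the probe sets Mcm4 was at 0.73 and Mcm6 at 0.47, and without pro-B replicate 1 Mcm6 was at 0.97, all under 2-fold.

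The D-type cyclins, which drive cells out of G1, split between the populations. Ccnd3 measured 7.84, 7.97 and 7.05 in DN3 and 10.27, 10.36 and 10.29 in pro-B (-2.69 ± 0.33), and Ccnd1 differed by -2.33 ± 0.24. Ccnd2 was higher in DN3 (11.21, 11.35 and 11.24 against 9.80, 9.82 and 10.87; 1.10 ± 0.20), as was Myb, the proto-oncogene (11.84, 11.98 and 11.99 against 9.89, 11.03 and 11.30). Without pro-B replicate 1 both fell under 2-fold, Ccnd2 to 0.92 and Myb to 0.77, and without pro-B replicate 2 Ccnd2 was at 0.93. With the mean of the probe sets Ccnd2 was at 0.39 and Myb at 0.98. Of 22 G1 genes and inhibitors, 6 were higher in pro-B and 2 in DN3; after quantile normalization 3 were higher in pro-B. The brightest probe set of Mycn was not called (0.52), while another differed by 3.04 ± 0.26.

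**Figure D5:**
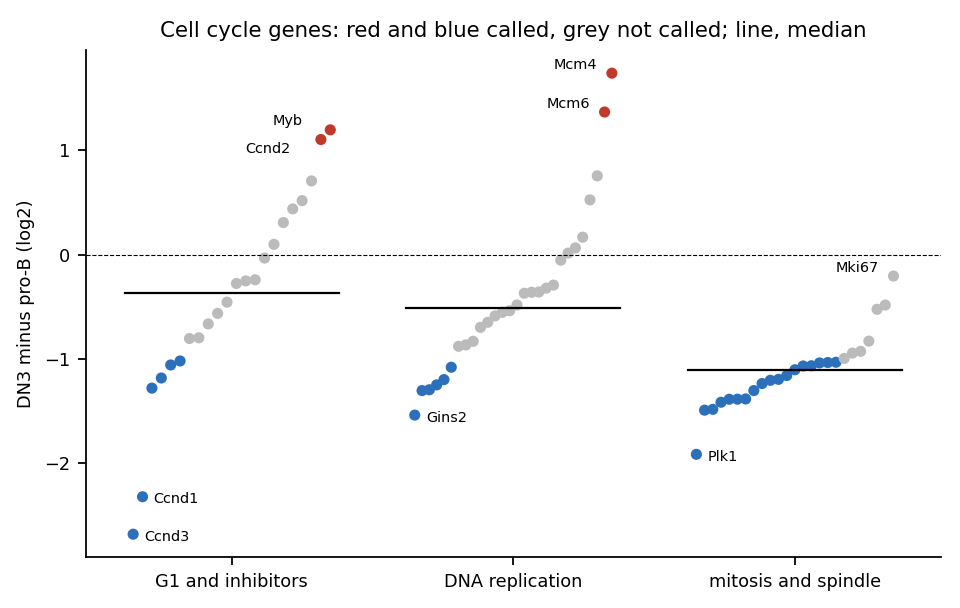
Difference of each measured gene between DN3 and pro-B (log2, vertical) in 3 cell cycle lists, ordered within each list, with called genes coloured and a line at the median of the list. The mitosis genes all lie below 0, around a median of -1.11, while the replication genes run from Gins2 at -1.54 to Mcm4 at 1.74.

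Survival, metabolic and chromatin genes were called in both directions. Of 17 apoptosis genes, 2 were called in each direction: Bcl2l11 (1.44 ± 0.38) and Bcl2 (1.07 ± 0.22) higher in DN3, and Bak1 (-1.53 ± 0.22) and Bid (-1.07 ± 0.22) higher in pro-B. The pro-B arrays for Bcl2l11, which encodes BIM, spread from 7.89 to 9.93, the latter next to the DN3 range of 9.95 to 10.45, and its adjusted p was 0.101 without pro-B replicate 1 and 0.0656 without pro-B replicate 2. Bcl2 was at 0.96 without DN3 replicate 5 and Bid at -0.92 without DN3 replicate 6, under 2-fold. With the mean of the probe sets Bcl2l11 was at 0.13 (adjusted p = 0.608) and Bid at -0.45. Mcl1 was not called (0.05). Of 16 glycolysis genes, Pdk1 (1.88 ± 0.34) was higher in DN3 and the glucose transporter Slc2a3 (-1.78 ± 0.37) higher in pro-B. With the mean of the probe sets Pdk1 and Slc2a3 were at 0.72 and -0.77, under 2-fold. The list had a median of -0.39. For 7 of its genes each pro-B array lay above each DN3 array and for 1 the reverse held, against 16.7% and 10.1% of all genes. Of 19 chromatin genes 4 were higher in DN3, led by the demethylase Kdm5b (9.52, 9.63 and 8.92 in DN3 against 7.82, 7.23 and 7.62), and 1 in pro-B, while Ezh2 (-0.93), Dnmt1 (-0.07) and Dnmt3a (-0.34) were not called. Among 18 FoxO and PI3 kinase genes, Pik3ip1, an inhibitor of the kinase, was higher in DN3 (1.44 ± 0.23). Of 17 immediate early and heat shock genes limma called 0, and 0 had an unadjusted p under 0.05.

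Of 11 genes of antigen presentation by class II molecules, 4 were higher in pro-B and 0 in DN3. The mean level of the list ran from 6.08 to 6.14 in the DN3 arrays and from 7.17 to 7.37 in the pro-B arrays. It ran from 7.34 to 7.51 in LSK, 7.23 to 7.62 in CLP and 7.44 to 7.68 in ETP. Pro-B was thus near these progenitors, while DN3 was low, as was HSC (6.2 to 6.3). Ctss, a protease that trims the invariant chain, measured 4.99, 5.45 and 5.32 in DN3 and 9.89, 9.90 and 9.83 in pro-B. H2-Ob, a regulator of peptide loading, differed by -3.98 ± 0.29, H2-Ab1 by -2.11 ± 0.24 and the invariant chain gene Cd74 by -1.14 ± 0.18. Ciita, the master regulator of the class II genes, was not called (0.02). Ctss and H2-Ab1 are also expressed by myeloid cells, whose list was higher in pro-B as given above.

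Of 15 genes of natural killer and innate lymphoid cells, 2 were higher in DN3 and 1 in pro-B. Gzma, a serine protease of cytotoxic granules, measured 11.60, 11.04 and 11.50 in DN3 and 4.50, 4.28 and 5.16 in pro-B, a difference of 6.73 ± 0.30 (adjusted p = 1.11e-11). The mean of Gzma was 3.55 to 5.24 in the other populations. Nkg7, which encodes another protein of cytotoxic granules, differed by 1.25 ± 0.18, with a DN3 mean of 6.77 below the ETP mean of 8.44. Tyrobp was the member higher in pro-B. Among the others, Gzmb (-0.14), Prf1 (0.01), Ncr1 (-0.11) and Eomes (0.17) were not called. Epcam, an adhesion molecule of epithelia, measured 8.53, 9.15 and 8.71 in DN3 and 4.91, 4.68 and 5.91 in pro-B. The thymic epithelial genes Foxn1 (-0.19), Psmb11 (0.11), Krt5 (0.29) and Krt8 (0.15) were not called.

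The 12 largest differences on each side included genes outside these groups. In DN3 these included Gbp8 (5.79 ± 0.23) and Gbp6 (5.50 ± 0.43), of the interferon-induced guanylate-binding proteins, and Nebl (5.48 ± 0.20), an actin-binding protein. Gbp8 measured 9.70, 9.68 and 9.41 in DN3 and 4.12, 3.66 and 3.66 in pro-B, and averaged at most 5.03 in the other populations. In pro-B they were the sialyltransferase St3gal6 (-5.86 ± 0.33), the heparan sulfate proteoglycan Sdc4 (-5.82 ± 0.42) and Gpat3 (-4.79 ± 0.39), an enzyme of glycerolipid synthesis. Sdc4 measured 4.53, 5.94 and 4.91 in DN3 and 11.06, 11.20 and 10.57 in pro-B, and averaged 8.68 in LSK. Of 887 called genes with several probe sets, 422 had another probe set called the same way. For 7 genes (Eif4g2, Kcnq1ot1, Mrps5, Rabgap1l, Tmsb10, Tsc22d1 and Ywhaz) probe sets were called in both directions. Those of Tsc22d1, which has long and short isoforms, ran from 2.85 to -1.90.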

How the data were processed

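RNA of sorted populations was amplified, biotin-labelled and hybridised to one-colour mouse arrays, per the labels' protocols. The deposited values are log2 expression made by RMA, per the submitters' processing notes; the version is not given in the sources used here, and the log base was read from the values. The 36 arrays fall into a block of 15 and a block of 21 normalized apart, so only the block of 21 was used. The annotation names 1 gene for 34945 of 45101 probe sets, several for 932 and none for 9160, and 64 are controls.

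Means of the 7 populations were fitted with limma 3.58.1 (lmFit, eBayes) in R 4.3.3, with 14 residual degrees of freedom, and the contrast DN3 minus pro-B was tested with Benjamini-Hochberg adjustment over 34945 probe sets. The block of 21 shares 1 estimate of spread, so a gene that varies among the other populations has a wider error. Tested on simulated data for this comparison (34945 probe sets), the fit recovered 91%, 98.5% and 100% of simulated log2 differences of 1.5, 2 and 3, with 2 false calls. Recovery and false calls in the measured arrays were not tested. Gene lists (35, with 591 genes, 533 of them measured) are described by counts and medians without a set test. The members, the lists and the pairs were chosen with earlier results of these data known.

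Genes named in the text are the 12 largest called differences in each direction with arrays that do not overlap, members of the lists and pairs, the markers, genes whose probe sets were called in both directions, and receptor segments; further probe sets of listed genes, the promoter windows and the motifs were chosen after their values were seen. Promoter windows came from RefSeq (GRCm38.p6). No depth exists for arrays; the precision is limited by their number. Other choices of scaling, arrays fitted, probe set per gene, filter, fold threshold, weights, trend and adjustment were run, and each array was left out in turn.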

Additional observations from a re-analysis of the deposited data

How the results depend on the processing

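The counts of genes higher in DN3 (518) and in pro-B (916) and of probe sets called (2678) stayed within 1.5 times under all settings except the fold thresholds. With no fold threshold 1105 genes were higher in DN3, 1968 in pro-B and 5521 probe sets were called; with limma's treat test against 1.5-fold they were 244, 408 and 1150. Leaving out each array in turn gave 468 to 605 genes, 740 to 1212 genes and 2244 to 3450 probe sets. Of 188 called genes among those listed or named, 92 were tested and called in every setting. Of the others, 70 lost their call in some setting, 59 of them under treat, and 26 lost none but were removed by the filter on low levels. Where the probe set with the highest variance stood for the gene, Cd247 turned to 4.96, Cenpa to 0.61 (not called), Mcm2 to -1.10 and Rrm2 to -1.38; with the mean of the probe sets Cd247 was 1.82. Leaving out probe sets under the median level removed all 5 called pre-T receptor genes from the test, since their mean over the 21 arrays is low. Quantile normalization changed the sign of the median of the cytokine, apoptosis and FoxO lists, to 0.18, 0.01 and 0.03. No paired analysis was possible because the DN3 arrays carry the numbers 4 to 6 and the pro-B arrays 1 to 3, so no number is shared.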

Other observations

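Genes outside the lists, chosen after their values were seen, also separated the populations. In DN3, Rapgef3, an exchange factor for Rap proteins activated by cyclic AMP, was higher by 5.32 ± 0.46 (SE, limma) and the calcium channel gene Cacna1d by 3.83 ± 0.21. Cdh1, which encodes E-cadherin, was higher by 3.31 ± 0.15 and averaged 7.24 in DN3 and 3.93 in pro-B. The aryl hydrocarbon receptor Ahr was higher by 3.37 ± 0.23.

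In pro-B, the fatty acid transporter Cd36 averaged 9.08 against 4.36 in DN3, a difference of -4.72 ± 0.24. Rhob (-4.67 ± 0.32), Anxa1 (-4.43 ± 0.30), the phosphatase Dusp6 (-3.65 ± 0.31) and Serpinf1 (-3.76 ± 0.21) were near the level of the other progenitors in pro-B and low in DN3. The kinase Sgk1 differed by -4.25 ± 0.42, the NF-kappaB subunit Rel by -3.03 ± 0.26 and the sialyltransferase St6gal1 by -3.26 ± 0.26.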
